A study of Mus musculus with 15 samples.

Results

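Female and male libraries labelled Pgr knockout were compared over the genes of chromosomes 1 to 19. These are 8 of the series' 15 libraries, 4 female and 4 male, chosen by their genotype and sex labels, with gene expression read from the table of counts before any filter. The other 7 libraries are labelled Pgr wild type (3 female, 4 male) and entered the fit so that all groups share an estimate of the spread. Each library holds nuclear RNA from mouse ventricular muscle, sorted for Pcm1, a centriolar satellite protein found around cardiomyocyte nuclei, and was made with a directional kit after depletion of ribosomal RNA. Pgr encodes the progesterone receptor, a hormone-activated transcription factor, and the series asks how this receptor acts on heart maturation in each sex. No age, promoter, Cre driver, strain background or pooling of animals is given in the sources used here, and the tissue label carries the numbers 3 and 6 without a unit. Pgr reads were present in the libraries labelled knockout, at 8.69, 11.9, 12.5 and 10.6 CPM (counts scaled to a common library total, after TMM normalisation) in replicates 1 to 4 of the females and 6.32, 6.10, 6.75 and 7.15 CPM in the males. The female level did not overlap the male one, yet the difference of 0.73 ± 0.37 (log2 fold change ± SE, edgeR adjusted p = 0.491) missed the threshold. In the libraries labelled wild type Pgr was at 0.117, 0.267 and 0 CPM in females and at 0.0901, 0.166, 0 and 0 CPM in males, below every library labelled knockout. Reads of the targeted gene were thus higher under the knockout than under the wild-type label. The sources used here do not say which part of Pgr is deleted, so the labels could not be checked. Genotype is named by label alone and no direction is read from it. No label says that replicates are separate animals, so p-values measure only the spread between these samples, which may be technical.

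Sex-linked genes aside, the hearts of male and female mice differ in autosomal genes through circulating steroids and through regulators encoded on the sex chromosomes. Cardiomyocytes contract by calcium cycling, burn mainly fatty acids, and re-express fetal genes, chaperones and growth-response cytokines under load. Nuclear RNA holds many introns and young transcripts, so it reports transcription and nuclear retention more than cytoplasmic mRNA.

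Xist, which coats and silences 1 X chromosome in females, was at 1126 to 1807 CPM in the females and 0.472 to 0.748 CPM in the males. Total counts were 42.3 to 55.4 M in the females and 25.0 to 139.4 M in the males (exact two-sided permutation p = 0.4). The cardiomyocyte genes Ttn (23125 to 41846 CPM), Myh6 (2963 to 6053 CPM) and Tnnt2 (2153 to 4023 CPM) were abundant in all 8. Markers of other cells split both sexes in the same way: replicates 1 and 2 had Pecam1, an endothelial adhesion molecule, at 37.0 to 79.5 CPM, replicates 3 and 4 at 3.00 to 4.17 CPM. A term for this split, set at 20 CPM of Pecam1, stands in the fit, and 2 of 4 libraries are high on each side. Endothelial markers summed to 79.0 to 1449 CPM in the females and 99.7 to 814 CPM in the males, and 14 of 30 had higher values in females. For fibroblast markers the sums were 188 to 3381 and 168 to 2062 CPM, with 25 of 30 tested members higher and Dpep1 at 0 reads. Leukocyte markers summed to 30.2 to 223 and 32.9 to 161 CPM (10 of 21 higher, Itgam at 0), epicardial ones to 24.8 to 184 and 18.3 to 84.9 CPM (13 of 16 higher). Female replicate 2 stands apart: it has the highest sum on all 4 of these lists, 3.47% of the male level of Y-linked reads, and the lowest Ttn and Myh6. List medians are given below with their lowest or highest value over the fits that leave out 1 library at a time, and the library left out, since each moved by over 1.5 times or changed sign in at least 1 such fit. In bulk RNA, fewer cells of a type cannot be told apart from less RNA per cell.

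Of 16876 autosomal genes tested, edgeR's quasi-likelihood test called 1 higher and 1 lower in the females at a Benjamini-Hochberg adjusted p below 0.05 (0.00593% of the tested genes in each direction). The lower one is Atp2b2, a plasma-membrane pump that expels calcium from the cell, and the higher one Ankrd63, an ankyrin-repeat protein of little described function. In the same fit 9 genes of X and Y passed, among them Kdm6a, Kdm5c and Eif2s3x, which escape X inactivation. The Y-linked Uty did not pass (-6.71, edgeR adjusted p = 0.155), at 0.205 to 9.30 CPM in females and 246 to 297 CPM in males. Missing the threshold thus does not show equal levels. At an unadjusted p below 0.05 stood 912 genes higher in females (5.40%) and 812 lower (4.81%). Groups did not overlap in 201 genes that were higher in all 4 females than in all 4 males (1.19%) and in 320 that were lower (1.90%).

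Atp2b2 fell in the females. Its level was 7.96, 4.13, 5.10 and 4.41 CPM in female replicates 1 to 4 and 22.8, 27.5, 21.9 and 18.6 CPM in male replicates 1 to 4. Every female library lay below every male one, with the highest female at 7.96 and the lowest male at 18.6 CPM. The difference was -2.08 ± 0.23 on the log2 scale, 4.22-fold higher in males (edgeR adjusted p = 0.00257, 1054 and 6662 pooled reads). High and low content libraries gave -2.06 and -2.08. In the libraries labelled wild type the pump was at 6.06, 3.97 and 3.27 CPM in females against 19.6, 19.2, 14.996 and 9.33 CPM in males, a difference of -1.89 ± 0.25 (adjusted p = 0.0365). There it was the 1 autosomal gene called (0.00593% of those tested). The sex difference was -0.18 ± 0.33 apart between the labels (adjusted p = 0.929), so it was not shown to depend on the label. Leaving out any 1 of the 15 libraries kept the call, with adjusted p from 0.000671 to 0.0230.

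Atp2b2 spans chromosome 6, 113743831 to 114042613, on the minus strand of GRCm38. Counts cover whole gene bodies, introns included, and the predicted gene Gm44167 overlaps it on the same strand. RefSeq promoter windows of GRCm38.p6 were found for both called genes, 3 for Atp2b2 and 1 for Ankrd63, and their 250 bases before the start were searched on both strands for 4 motifs fixed for steroid receptors and clock factors. They were the palindromic element shared by androgen, glucocorticoid and progesterone receptors, its hexamer TGTTCT, which that palindrome also contains, the palindromic oestrogen response element, and the E-box CACGTG. A single match was found, the hexamer on the plus strand of the gene, 209 bases before the most downstream of the Atp2b2 starts, within the gene body. That window and the Ankrd63 window are shown because they belong to the called genes and differ in holding the hexamer, which is in capitals.
Atp2b2, chr6:113891540-113891789, minus strand: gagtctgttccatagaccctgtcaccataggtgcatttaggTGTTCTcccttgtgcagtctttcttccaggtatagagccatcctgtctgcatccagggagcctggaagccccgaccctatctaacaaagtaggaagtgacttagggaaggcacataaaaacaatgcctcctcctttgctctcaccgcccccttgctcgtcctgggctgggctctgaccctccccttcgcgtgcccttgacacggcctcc
Ankrd63, chr2:118703964-118704213, minus strand: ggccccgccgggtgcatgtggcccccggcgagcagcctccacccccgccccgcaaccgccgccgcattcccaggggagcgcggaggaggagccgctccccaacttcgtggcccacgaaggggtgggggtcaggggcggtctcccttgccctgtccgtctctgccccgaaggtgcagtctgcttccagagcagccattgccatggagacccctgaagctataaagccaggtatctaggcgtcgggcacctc
Among 32851 windows of this length, 16.1% hold the hexamer, 6.02% the E-box, 0.0213% the oestrogen receptor palindrome and 0.00913% the palindrome of the androgen receptor group. A match of letters describes the window and shows no binding.

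Ankrd63 rose in the females, at low counts. It was at 0.404, 0.784, 0.845 and 0.445 CPM in the females and 0.0374, 0.0782, 0.126 and 0.109 CPM in the males, from 20 to 48 reads per female and 1 to 15 reads per male library. The groups did not overlap, and male replicate 1, with its single read, lies under the 3-count floor of that library. The difference was 2.76 ± 0.42, a fitted 6.77-fold (adjusted p = 0.0301; 122 and 30 pooled reads). Among the fits that leave out 1 library it was called in 8 of 15. The adjusted p was 0.0555 without female replicate 2, 0.105 without female replicate 3, 0.0961, 0.138, 0.137 and 0.175 without male replicates 1 to 4, and 0.0506 without the wild-type female replicate 1. In the libraries labelled wild type the difference was 0.55 ± 0.41. The contrast between labels was 2.20 ± 0.59 (adjusted p = 0.906) and was not called.

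**Figure D1:**
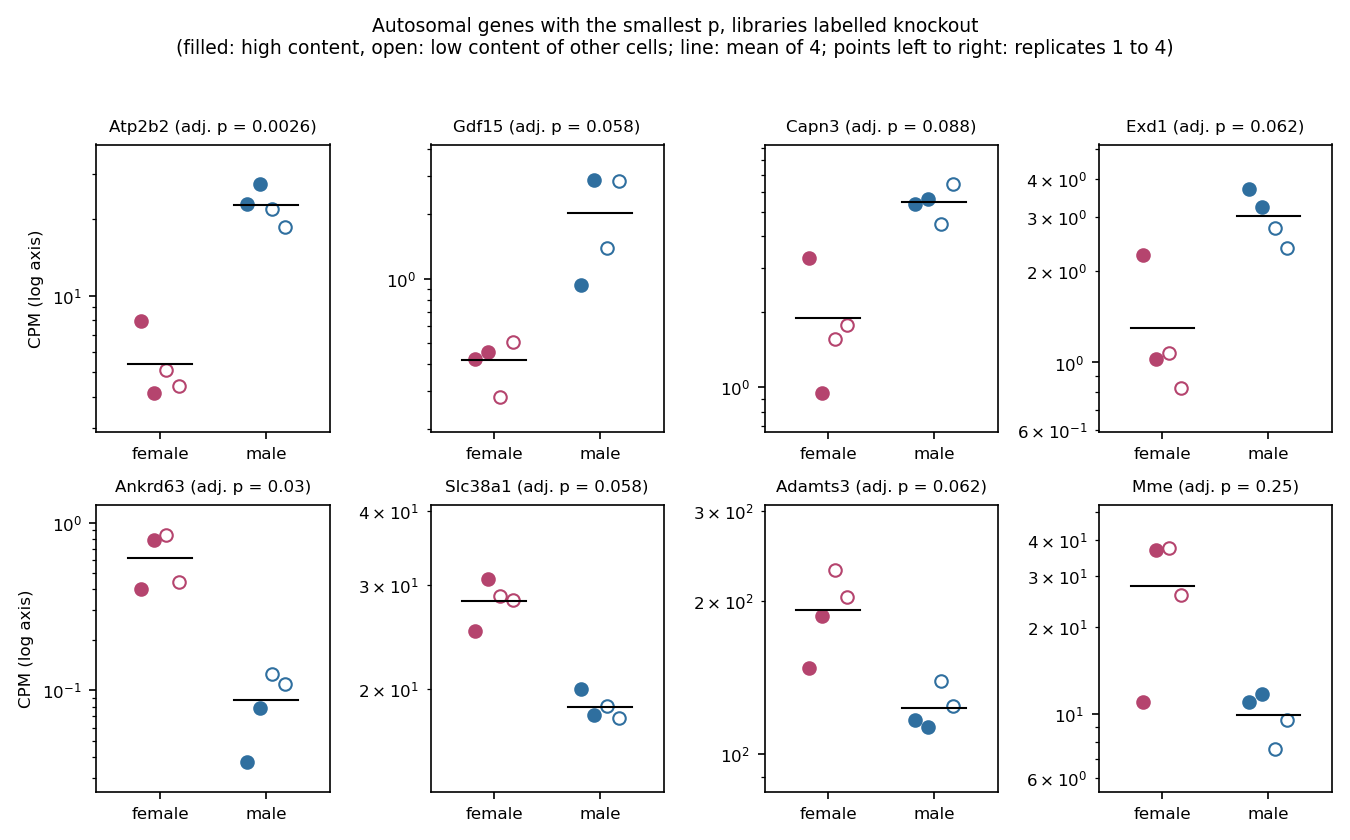
Levels of 8 autosomal genes in CPM (log axes) in the 4 female and 4 male libraries labelled knockout, with filled points for high and open points for low content of other cells, and a line at the mean. Atp2b2 and Ankrd63 passed the adjusted threshold; female replicate 1 is the highest female for Atp2b2, Capn3 and Exd1, and the lowest for Slc38a1, Adamts3 and Mme.

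The other genes named here did not pass in edgeR. On the female-higher side stood Slc38a1, a sodium-coupled glutamine transporter, at 25.1, 30.7, 28.7 and 28.3 CPM in females against 20.04, 18.1, 18.8 and 17.9 CPM in males (0.59 ± 0.10, adjusted p = 0.0578). Adamts3, a protease that trims procollagen and activates the lymphatic factor VEGF-C, was at 148, 187, 229.7 and 204 CPM in females against 117, 113, 138.9 and 124 CPM in males (0.63 ± 0.11, adjusted p = 0.0623). Neither gene overlapped between the sexes. Mme encodes neprilysin, which breaks down natriuretic peptides. Its levels were 10.98, 36.8, 37.7 and 25.8 CPM in females against 10.99, 11.7, 7.54 and 9.50 CPM in males (1.45 ± 0.32, adjusted p = 0.252). Female replicate 1 sat at the level of the males, and the other 3 females were more than 2-fold above every male.

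The genes named on each side are the 12 with the smallest p among called genes and, below those, genes of at least 1 CPM with no predicted name. Others on the female-higher side were Med12l, a paralogue of a Mediator subunit (0.50 ± 0.11), Pcsk5, a proprotein convertase (0.63 ± 0.14), Abcd2, a peroxisomal carrier of very long fatty acids (0.77 ± 0.18), and Tle1, a transcriptional co-repressor (0.62 ± 0.15). The remaining ones were Abhd18 (0.55 ± 0.12), Ccnb1ip1 (0.66 ± 0.16), the channel subunit Cngb3 (1.66 ± 0.41) and the ubiquitin ligase Hecw1 (1.41 ± 0.35). Their adjusted p-values ran up to 0.302. Groups did not overlap in 6 of the 12 (1.19% of all genes on this side), and all 12 had the same direction in high and in low content libraries. The 12 were picked by p in these same libraries, so both counts follow in part from that choice.

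On the male-higher side the first gene after Atp2b2 was Gdf15, a stress-induced cytokine of the TGF-beta family that curbs appetite. It was at 0.424, 0.458, 0.282 and 0.509 CPM in females (84 reads in all) and 0.934, 2.88, 1.38 and 2.84 CPM in males (724 reads). The sexes did not overlap, but male replicates 2 and 4 were at over 2 CPM and the others between 0.934 and 1.38 CPM. The difference of -2.26 ± 0.40 had an adjusted p = 0.0578. It passed with replicate number as a block (edgeR adjusted p = 0.0189), with a numeric content term (edgeR adjusted p = 0.0458) and in DESeq2 (adjusted p = 4.06e-05). It did not pass in limma-voom (adjusted p = 0.0944), in the 8 libraries alone (edgeR adjusted p = 0.125) or with no content term (edgeR adjusted p = 0.129). Under the wild-type label it was -0.62 ± 0.42.

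Capn3, the calcium-dependent protease whose loss causes a limb-girdle dystrophy, was at 3.27, 0.948, 1.56 and 1.78 CPM in females against 5.35, 5.63, 4.48 and 6.47 CPM in males (-1.55 ± 0.30, adjusted p = 0.0877). It ran the other way under the wild-type label (0.76 ± 0.31). The contrast between labels, -2.31 ± 0.43, had an edgeR adjusted p = 0.906, and DESeq2 called it (adjusted p = 0.00101). Ganc overlaps Capn3 on the same strand. Exd1, a component of the piRNA machinery, was at 2.24, 1.03, 1.08 and 0.826 CPM in females against 3.70, 3.23, 2.77 and 2.38 CPM in males (-1.25 ± 0.22, adjusted p = 0.0623), and Lman1l, a lectin-like gene, at 0.950, 0.605, 0.563 and 0.911 CPM in females against 1.38, 1.77, 1.95 and 2.04 CPM in males (-1.26 ± 0.23, adjusted p = 0.0764). Both separated the sexes without overlap. A small Y RNA, Rny3 (-2.61 ± 0.60), the autophagy regulator Dram1 (-0.59 ± 0.14), the innate immune regulator Nlrc3 (-0.88 ± 0.21) and the scramblase relative Xkr6 (-0.38 ± 0.09) were also on this side, with adjusted p-values up to 0.289. All but Rny3 and Nr4a1 of the 12 had groups without overlap (1.90% of all genes on this side), which follows in part from their choice by p.

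Cdh4 and Slc8a3 were close in size under both labels. Cdh4, the cell adhesion molecule R-cadherin, was at 34.8, 6.14, 20.4 and 11.5 CPM in females against 69.7, 43.2, 59.0 and 51.0 CPM in males (-1.63 ± 0.37, adjusted p = 0.271), and its difference under the wild-type label was -1.62 ± 0.41. Slc8a3, a sodium-calcium exchanger, was at 2.34, 2.19, 2.33 and 1.80 CPM in females against 3.92, 4.77, 2.60 and 3.56 CPM in males (-0.77 ± 0.18, adjusted p = 0.289; -0.85 ± 0.20 under the wild-type label). Xkr6 had -0.38 ± 0.09 and, under the wild-type label, -0.37. The contrast between labels had an adjusted p = 0.998 for Cdh4 and an adjusted p = 0.959 for Slc8a3. Of the 24 genes named so far as leading, 9 of 12 female-higher and 8 of 12 male-higher ones had the same direction under the wild-type label. edgeR called 0 autosomal genes (0%) for the contrast of the sex difference between labels, with 690 at an unadjusted p below 0.05, limma-voom called 0 and DESeq2 called 1, Capn3.

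**Figure D2:**
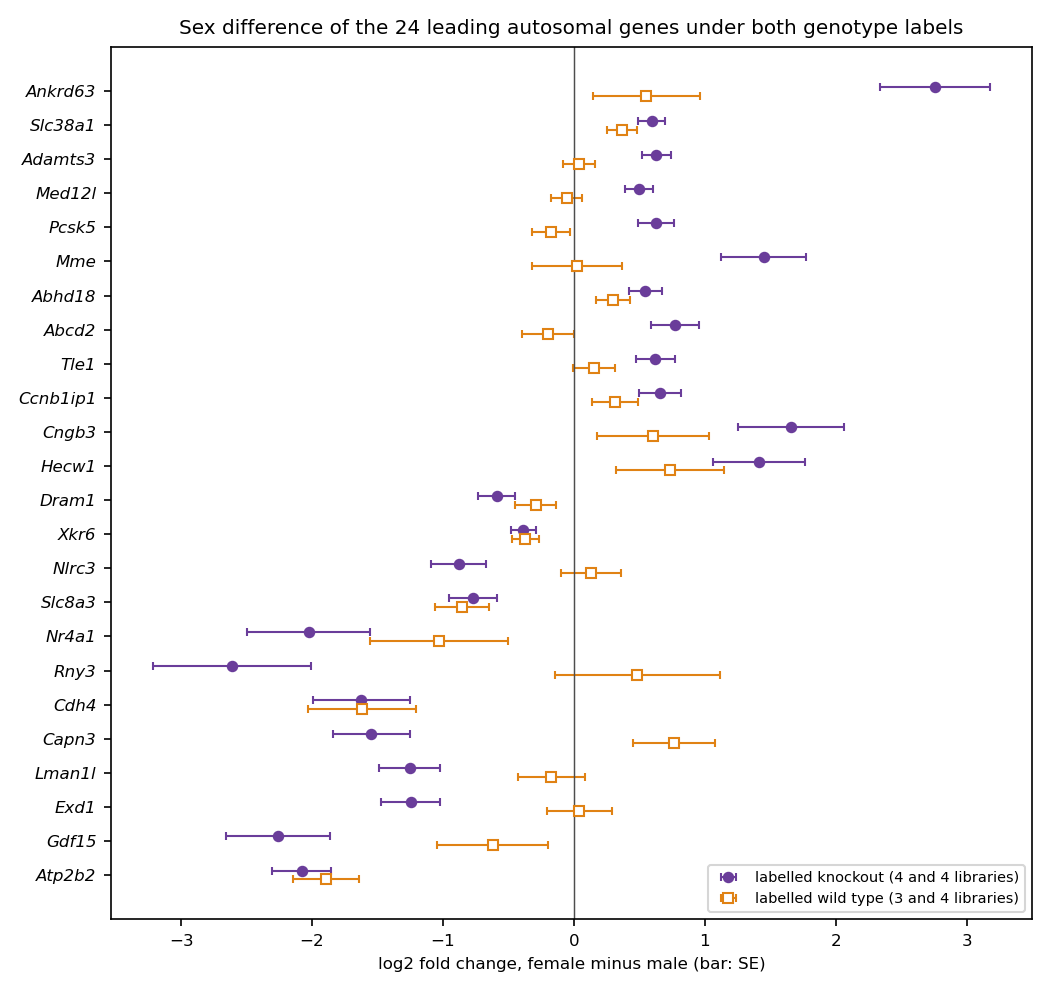
Log2 fold change, female minus male (points, with SE), of the 24 leading autosomal genes in the libraries labelled knockout (filled) and wild type (open). Atp2b2, Cdh4, Slc8a3 and Xkr6 lie together, whereas Capn3 lies at -1.55 under the knockout label and 0.76 under the wild-type label.

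Of the 10 autosomal genes with the smallest p, 4 lie within 2.76 Mb of chromosome 2: Ankrd63 (118699103 to 118703963), Exd1 (119516505 to 119547627), Capn3 (120456019 to 120504913) and Serinc4 (121439059 to 121456781). This stretch was picked after the values were seen. Serinc4, a serine incorporator named for that reason only, was at 0.344, 0.359, 0.256 and 0.339 CPM in females against 0.934, 0.796, 0.645 and 0.743 CPM in males (-1.24 ± 0.22, adjusted p = 0.0623), and Ell3 overlaps it on the same strand. Of the tested genes in the stretch, 5 of 67 (7.46%) had an unadjusted p below 0.05, against 10.2% of all autosomal genes tested, and the median was -0.06. Ankrd63 was higher in females and the other 3 lower.

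Genes of the calcium-handling list were divided in direction. The list does not hold the calcium pump Atp2b2, called lower in females, or the exchanger Slc8a3, both described above. Of 32 tested, 14 had higher and 18 lower values in females (median -0.02, against -0.01 and 48.9% higher over all autosomal genes tested), 0 were called, 1 was higher (3.12%, against 5.40% of all genes) and 3 lower (9.38%, against 4.81%) at an unadjusted p below 0.05. The median ranged from -0.05 without female replicate 4 to 0.02 without male replicate 2. S100a1, a calcium sensor that enhances the ryanodine receptor and the SERCA pump, was at 18.9, 12.03, 9.94 and 11.5 CPM in females against 19.9, 25.5, 19.1 and 24.6 CPM in males (-0.79 ± 0.20, adjusted p = 0.302). The sexes did not overlap, by a small margin at female replicate 1. Hrc and Casq1, calcium-binding proteins of the sarcoplasmic reticulum, had -0.68 ± 0.24 and -0.70 ± 0.25, and both overlapped between the sexes. Stim2, a sensor of calcium stores, had 0.40 ± 0.18, with female replicate 2 at 69.0 CPM and the other females at 31.5 to 36.8 CPM.

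Sarcomere genes leaned to lower values in the females, in 29 of 32 tested (median -0.25), 0 of them called. At an unadjusted p below 0.05 were 5, all lower (15.6% of the list against 4.81% of all genes). They were the actin anchor Nrap (-0.53 ± 0.19), the Z-disc crosslinker Actn2 (-0.51 ± 0.18), desmin Des (-0.49 ± 0.19), the light chain Myl3 (-0.43 ± 0.18) and the slow myosin Myh7 (-0.78 ± 0.36), with adjusted p from 0.402 to 0.480. Actn2 stood at 1042, 577, 886 and 867 CPM in females against 1044, 1034, 1282 and 1458 CPM in males, so female replicate 1 was at the male level and female replicate 2 was lowest. Without female replicate 2, 23 of 32 had lower values and the median was -0.13. In that fit 2 were lower at an unadjusted p below 0.05, beside 484 of all 16758 autosomal genes. The other end of the median was -0.29 without male replicate 1. In the libraries labelled wild type the list's median was 0.05. Only Myot, a Z-disc protein chosen after its values were seen, had no overlap between the sexes (-0.53 ± 0.27). This was 3.125% of the list, against 1.90% of all genes. Myom1 and Xirp1 are listed at 0 reads in all 8 libraries, as are Cox4i1, Ndufa13, Cpt1b and Rpl13 of other lists, and nothing is said of these genes.

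Ion channels and junction genes were mixed. Of 32 channels 14 had higher values (median -0.03, from -0.08 without female replicate 1 to -0.02 without male replicate 3). The potassium channels Kcna4 (0.45 ± 0.17) and Kcnj3 (0.42 ± 0.16) and the channel kinase Trpm7 (0.36 ± 0.13) were higher and the leak channel Kcnk3 (-0.48 ± 0.22) lower at an unadjusted p below 0.05, each overlapping. Kcnj3 is also among the atrial and conduction markers, which summed to 1485 to 2108 CPM in females and 1220 to 1545 CPM in males. Of 26 tested, 12 had higher values, 3 of them at that threshold (11.5%, against 5.40% of all genes), and 0 were lower at it. A part of such cells was not tested. Of 29 intercalated disc genes 12 had higher values (median -0.01, -0.08 without female replicate 1). Without female replicate 2, 15 of 29 had higher values and 0 lower ones were at an unadjusted p below 0.05, beside 484 of all 16758 genes. Gjc1, the connexin of slow-conducting tissue, was at 26.5, 41.1, 43.2 and 37.7 CPM in females against 25.9, 25.6, 28.1 and 24.04 CPM in males (0.51 ± 0.13, adjusted p = 0.338), while desmoplakin Dsp (-0.29 ± 0.13) and lamin Lmna (-0.40 ± 0.18) had lower values. Among 35 cardiac transcription factors 16 had higher values (median -0.03, -0.13 without female replicate 1). Without female replicate 2 the majority reversed, with 21 of 35 higher and a median of 0.02. Hand2, which drives ventricle formation, was at 13.1, 8.73, 9.73 and 10.7 CPM in females against 20.4, 13.6, 13.5 and 21.4 CPM in males (-0.71 ± 0.22, adjusted p = 0.375) without overlap, and Ppara, the receptor that turns on fatty acid genes, had -0.53 ± 0.19. Higher in females were the Notch target Hey2 (0.54 ± 0.19) and Mef2c (0.40 ± 0.17).

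The fetal and stress list had the lowest values in females after chaperones. Of 30 genes 26 had lower values (median -0.36, in low and high content libraries -0.45 and -0.28) and 0 were called. At an unadjusted p below 0.05 were 8 lower (26.7%, against 4.81% of all genes) and 3 higher (10%, against 5.40%). Ankrd1, a stretch-responsive titin partner, was at 152, 118, 159.6 and 101 CPM in females against 194, 362, 277 and 253 CPM in males (-1.04 ± 0.27, adjusted p = 0.332). Acta1, the skeletal actin of fetal and overloaded hearts, was at 64.5, 39.5, 44.1 and 66.5 CPM in females against 71.2, 178, 89.5 and 154 CPM in males (-1.20 ± 0.33, adjusted p = 0.350). With Gdf15 and the small heat shock protein Cryab (-0.84 ± 0.27), these were the 4 members whose sexes did not overlap (13.3% of the list against 1.90% of all genes). The natriuretic peptides overlapped: Nppb had -0.76 ± 0.36, and Nppa had -0.57 ± 0.35 but 0.29 in low content libraries. Lin28b (0.48 ± 0.17), Ces1d (1.56 ± 0.59) and Igf2bp3 (1.57 ± 0.69) had higher values, the last at 1.49 CPM in female replicate 2 against 0.191 to 0.359 CPM in the other females. Without that library 24 of 30 had lower values, 5 of them at an unadjusted p below 0.05, beside 484 of all 16758 genes. The list's median was then -0.32. Its range was -0.47 without male replicate 1 to -0.22 without male replicate 2. Under the wild-type label the median was -0.03.

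Chaperones had the lowest list median. Of 34 heat shock genes 29 had lower values in females (median -0.45, in low and high content libraries -0.68 and -0.25) and edgeR called 0. At an unadjusted p below 0.05 were 7 lower (20.6%, against 4.81%) and 1 higher (2.94%, against 5.40%). Groups did not overlap in 6, all lower (17.6%, against 1.90%): Hspb6, Cryab, Hspa8, Dnajb1, Hsp90aa1 and Hsph1. Hspb6, a small heat shock protein phosphorylated in beta-adrenergic signalling, was at 16.0, 9.36, 9.66 and 11.95 CPM in females against 18.4, 24.6, 16.3 and 25.6 CPM in males (-0.86 ± 0.22, adjusted p = 0.316). Hspa8, the constitutive HSC70, was at 61.8, 39.9, 32.4 and 56.3 CPM in females against 79.0, 80.7, 63.6 and 79.7 CPM in males (-0.67 ± 0.24, adjusted p = 0.403). For both genes every female library lay below every male one, with the closest libraries, female replicate 1 and male replicate 3, almost level.

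The inducible chaperones were highest in male replicate 4. Hspa1a, the inducible HSP70, was at 12.3 CPM there and at 0.449 to 0.865 CPM in the other males, against 0.485, 0.637, 0.692 and 0.445 CPM in the females. Dnajb1 stood at 29.3 CPM in that library against 7.19 to 9.46 CPM in the other males, and Hsp90aa1 at 40.2 CPM against 14.1 to 16.2 CPM. Without male replicate 4 the list median was -0.25, and the other end was -0.53 without male replicate 2. Without female replicate 2 it was -0.45, and under the wild-type label -0.15. The other members at an unadjusted p below 0.05 were Hspb8 (-0.58 ± 0.21), Dnajb5 (-0.65 ± 0.25), Hsp90ab1 (-0.64 ± 0.24) and Hspb7 (-0.54 ± 0.25), all lower, and the heat shock factor Hsf2 (0.40 ± 0.18), higher.

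Early-response genes went both ways. Of 36 tested 21 had lower values (median -0.11), 9 lower (25.0%, against 4.81% of all genes) and 3 higher (8.33%, against 5.40%) were at an unadjusted p below 0.05 and 0 were called. Nr4a1, an orphan nuclear receptor induced by calcium and adrenergic signals, was at 8.71, 7.40, 6.45 and 3.37 CPM in females against 35.7, 8.59, 29.0 and 25.9 CPM in males (-2.03 ± 0.47, adjusted p = 0.280). Male replicate 2, at 8.59 CPM, was just below the highest female. Btg2, an antiproliferative gene, did not overlap, with 10.2, 10.2, 8.22 and 7.71 CPM in females against 20.3, 13.02, 15.3 and 29.5 CPM in males (-1.12 ± 0.32, adjusted p = 0.369). Lower also were Nr4a3 (-3.13 ± 1.29), the AP-1 members Jun (-0.71 ± 0.21), Fos (-1.82 ± 0.85), Fosl2 (-0.57 ± 0.24) and Atf3 (-1.89 ± 0.70), the phosphatase Dusp5 (-0.57 ± 0.19) and Ppp1r15a (-0.80 ± 0.24). Higher were Klf10 (1.42 ± 0.48), Rgs2 (0.58 ± 0.22) and Fosb (1.39 ± 0.65), the last at 1.42 CPM in female replicate 2 and at most 0.219 CPM elsewhere. The list median ranged from -0.21 without female replicate 2 to 0.06 without male replicate 4.

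The unfolded protein response list ran against these stress lists in its count but not in its leading members. Of 35 genes 25 had higher values (median 0.15), while those at an unadjusted p below 0.05 were 4 lower (11.4%, against 4.81%) and 1 higher (2.86%, against 5.40%). Lower were the integrated stress response genes Ppp1r15a, Ddit3 (7.40, 5.34, 8.30 and 8.77 CPM in females, 10.2, 10.7, 13.8 and 13.7 CPM in males, -0.70 ± 0.22), Atf3 and Atf4 (-0.40 ± 0.16), with adjusted p from 0.369 to 0.441. The sexes did not overlap for Ddit3, nor for the kinase Eif2ak3 (0.17 ± 0.09), which was higher. Xbp1 (0.24 ± 0.11) was the higher one. Without female replicate 2 the median was -0.01 and 16 of 35 had higher values; without male replicate 2 it was 0.21. Of 35 oxidative stress genes 17 had higher values (median -0.02, from -0.06 without female replicate 2, with 12 higher, to 0.03 without female replicate 3). The 3 at an unadjusted p below 0.05 (8.57%, against 4.81%) were lower: the autophagy receptor Sqstm1, at 55.1, 48.5, 45.4 and 53.3 CPM in females against 75.3, 57.0, 68.3 and 79.5 CPM in males (-0.47 ± 0.14, adjusted p = 0.369), Prdx5 (-0.36 ± 0.15) and Nqo1 (-0.33 ± 0.14). Sqstm1 and Nqo1 did not overlap (5.71% of the list, against 1.90% of all genes). Of 40 ubiquitin ligase and autophagy genes 28 had lower values (median -0.07, from -0.11 without male replicate 2 to -0.02 without male replicate 1), among them Sqstm1, Wipi1 (-0.42 ± 0.19) and Gabarapl1 (-0.37 ± 0.16), and Cblb had 0.31 ± 0.13.

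**Figure D3:**
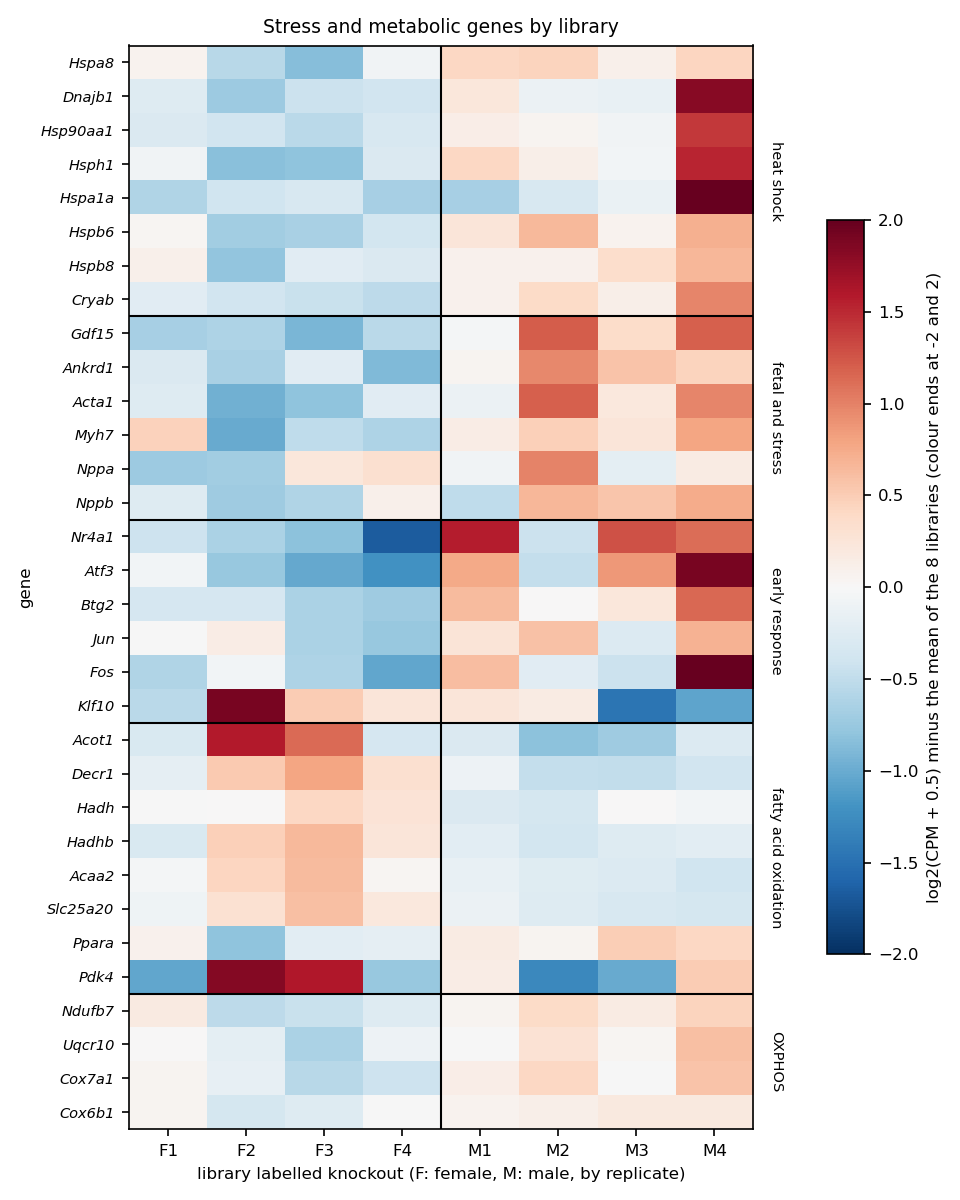
Log2(CPM + 0.5) of stress and metabolic genes in each library labelled knockout, relative to the mean of the 8 libraries (blue lower, red higher, colours end at -2 and 2; OXPHOS is oxidative phosphorylation). Hspa1a, Dnajb1, Hsp90aa1, Hsph1 and Fos are reddest in male replicate 4, whereas Ankrd1, Gdf15 and Btg2 are lower in each female than in each male library.

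Fatty acid genes leaned to higher values in the females. Of 48 tested in this list, which includes PPAR targets, 36 had higher values (75.0%, against 48.9% of all genes; median 0.13) and 0 were called. At an unadjusted p below 0.05 were 8 higher (16.7%, against 5.40%) and 2 lower (4.17%, against 4.81%). Of these 8, 7 serve the oxidation of fatty acids: Decr1, which reduces unsaturated acyl-CoA, at 73.8, 121, 146 and 104 CPM in females against 78.2, 59.9, 59.4 and 64.3 CPM in males (0.74 ± 0.25, adjusted p = 0.381), both subunits of the trifunctional protein, Hadha (0.38 ± 0.18) and Hadhb (0.55 ± 0.21), Hadh (0.35 ± 0.12), Acaa2 (0.55 ± 0.21), Eci2 (0.39 ± 0.17) and the carnitine carrier Slc25a20 (0.54 ± 0.22). The eighth was the thioesterase Acot1 (2.02 ± 0.63). Acaa2, with 89.2, 123, 142 and 94.1 CPM in females against 81.9, 76.8, 75.3 and 69.5 CPM in males, and Slc25a20, with 21.7, 28.6, 35.4 and 26.9 CPM in females against 21.2, 19.3, 18.4 and 17.9 CPM in males, were the 2 whose sexes did not overlap. These 2 were 4.17% of the list, against 1.19% of all genes. For Slc25a20, female replicate 1 sat just above the highest male.

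The 2 lower members were the receptors themselves, Ppara at 302, 162, 247 and 251 CPM in females against 318, 295, 400.2 and 378 CPM in males (adjusted p = 0.403), and Ppard (-0.49 ± 0.23). Pdk4, the kinase that shuts off pyruvate oxidation in fasting, varied within both sexes, with 33.4, 249, 210.3 and 40.8 CPM in females against 76.6, 27.8, 34.0 and 98.3 CPM in males (1.22 ± 0.78, adjusted p = 0.547). Acot1 was likewise highest in female replicates 2 and 3, at 0.627, 3.66, 2.54 and 0.593 CPM in females against 0.635, 0.287, 0.346 and 0.649 CPM in males. Without female replicate 2, 35 of the list's 48 had higher values, 3 of them at an unadjusted p below 0.05, beside 356 of all 16758 genes. The list's median was 0.21 in low and 0.13 in high content libraries, 0.15 without female replicate 2, and 0.06 under the wild-type label. Its range was 0.08 without female replicate 3 to 0.23 without male replicate 1.

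Carbohydrate and respiratory genes leaned the other way. Of 51 genes of glycolysis, pyruvate and the citric acid cycle 36 had lower values (median -0.15), 4 of them at an unadjusted p below 0.05 (7.84%, against 4.81%) and 0 called. These were aldolase Aldoa, at 97.6, 81.3, 59.8 and 71.4 CPM in females against 101, 128, 85.1 and 118 CPM in males (-0.49 ± 0.16, adjusted p = 0.381), Pdk2 (-0.42 ± 0.17), Gapdh (-0.31 ± 0.13) and Pfkl (-0.35 ± 0.16), all overlapping. Of 51 nuclear genes of oxidative phosphorylation 37 had lower values (median -0.12), 5 at an unadjusted p below 0.05 (9.80%, against 4.81%) and 0 called. They were Ndufb7 of complex I (-0.54 ± 0.21), Uqcr10 of complex III (-0.46 ± 0.19) and the complex IV subunits Cox7a1 (-0.58 ± 0.23), Cox6a2 (-0.81 ± 0.36) and Cox6b1 (-0.27 ± 0.13), with adjusted p from 0.439 to 0.474. Cox6b1 and Ndufb9 (-0.18 ± 0.13) did not overlap (3.92% of the list, against 1.90% of all genes), by a small margin at female replicate 1 in both. Without female replicate 2 the medians were -0.06 and -0.08. The first was -0.19 without female replicate 4, and the second ranged from -0.17 without male replicate 1 to -0.07 without male replicate 4. Under the wild-type label they were 0.04 and 0.11. Of 41 genes of mitochondrial upkeep 27 had lower values (median -0.10, -0.03 without female replicate 2, -0.16 without female replicate 1), Ckm, the muscle creatine kinase, with -0.47 ± 0.19, and Clpp without overlap (-0.33 ± 0.16).

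Reads encoded in the mitochondria were a share of 0.254% to 0.918% in the females and 0.404% to 1.12% in the males (exact two-sided permutation p = 0.486, smallest possible 0.0286). Of 39 genes of ketone, amino acid and creatine metabolism 22 had higher values (median 0.11), with 6 higher (15.4%, against 5.40%) and 2 lower (5.13%, against 4.81%) at an unadjusted p below 0.05. The median ranged from 0.03 without female replicate 3 to 0.14 without male replicate 3. Bckdhb, of branched-chain acid breakdown, was at 141, 187, 267 and 198 CPM in females against 145, 117, 167 and 131 CPM in males (0.48 ± 0.14, adjusted p = 0.369). Amd2 (1.02 ± 0.30), Pcca (0.31 ± 0.12), Aldh6a1 (0.39 ± 0.16) and Mccc1 (0.27 ± 0.11) were also higher. Bdh1, which interconverts ketone bodies, was at 9.36, 3.15, 12.8 and 7.76 CPM in females against 17.2, 12.8, 23.2 and 13.6 CPM in males (-1.03 ± 0.34, adjusted p = 0.381) without overlap, and its difference under the wild-type label was -1.02. Amd2 did not overlap either.

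Insulin signalling and glycogen genes were balanced (20 of 39 higher, median 0.01; 19 of 39 without female replicate 2, and a median of -0.05 without female replicate 3). The regulatory subunits of glycogen-bound phosphatase pointed apart, Ppp1r3a at 0.57 ± 0.24 and Ppp1r3c at -0.60 ± 0.25, and Pik3r1 had 0.44 ± 0.16. Of 35 lipid synthesis genes 24 had higher values (median 0.06, 0.12 without female replicate 1). Acaca, which makes malonyl-CoA, did not overlap, with 54.7, 70.1, 66.2 and 91.5 CPM in females against 53.7, 53.9, 44.9 and 42.2 CPM in males (0.53 ± 0.16, adjusted p = 0.381), and Fads1 had 0.38 ± 0.17.

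**Figure D4:**
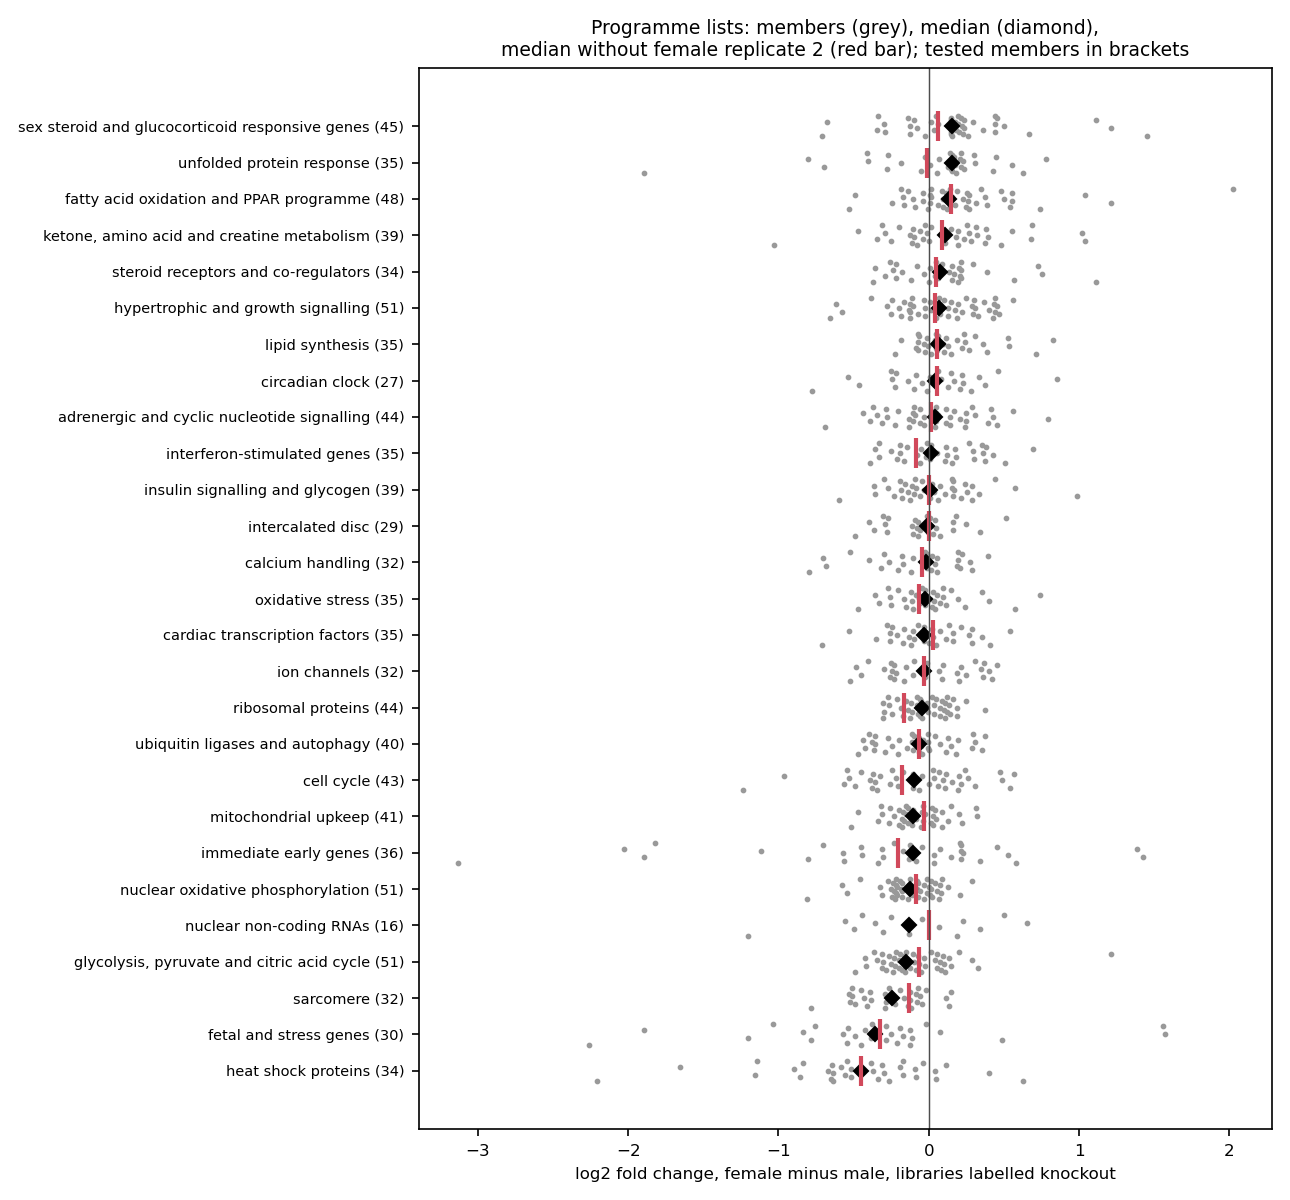
Log2 fold change, female minus male, of the tested members (grey) of 27 gene lists with the median (diamond) and the median without female replicate 2 (red bar). Heat shock, fetal and stress, and sarcomere lists have the lowest medians, and the unfolded protein response median moves from 0.15 to -0.01 without that library.

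Hormone and adrenergic genes were examined because the study concerns a steroid receptor. Of 34 receptors and co-regulators 23 had higher values (median 0.08, from 0.05 without female replicate 2 to 0.10 without female replicate 3). Of 45 genes responsive to sex steroids or glucocorticoids 33 did (median 0.16, from 0.06 without female replicate 2 to 0.24 without female replicate 1), and 0 of either were called. In the first list 2 were at an unadjusted p below 0.05 (5.88%, against 5.40%), both higher: the membrane progestin receptor relative Paqr9, at 25.7, 40.8, 49.0 and 44.1 CPM in females against 26.6, 23.0, 26.0 and 30.7 CPM in males (0.56 ± 0.15, adjusted p = 0.341), and Hsd17b4 (0.38 ± 0.13). Pgr was its 1 member without overlap (2.94% of the list, against 1.19% of all genes). In the second, 8.89% were higher and 6.67% lower at that threshold, against 5.40% and 4.81% of all genes. The 4 higher were Mme, Pik3r1, Cxcl12 (0.45 ± 0.19) and Xbp1, and the 3 lower Hand2, Abcc4 (-0.34 ± 0.13) and Acox2 (-0.67 ± 0.26). Fkbp5, a glucocorticoid-induced chaperone of steroid receptors, varied within each sex, at 7.28, 30.3, 16.5 and 5.79 CPM in females against 13.2, 7.89, 4.499 and 3.75 CPM in males (1.11 ± 0.52, adjusted p = 0.480).

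The alpha-1 adrenergic receptors pointed apart. Adra1a was at 121, 72.4, 152 and 89.4 CPM in females against 233, 114, 177 and 170.3 CPM in males (-0.69 ± 0.23, -0.79 under the wild-type label), and Adra1b at 137, 103, 142 and 126 CPM in females against 106, 78.1, 108 and 94.6 CPM in males (0.39 ± 0.13, 0.52 under the wild-type label), each with an adjusted p = 0.381. Gnaq, which carries their signal, had 0.25 ± 0.10 without overlap, the 1 such gene of the list (2.27%, against 1.19% of all genes). The 44 adrenergic genes had a median of 0.04 (24 higher; 0.01 without female replicate 1). Of 51 growth-signalling genes 31 had higher values (median 0.07, 0.04 without female replicate 3). Stat3 was at 138, 86.1, 103 and 93.6 CPM in females against 142, 139.2, 147 and 199 CPM in males (-0.58 ± 0.19, adjusted p = 0.381) and the co-receptor Tgfbr3 had 0.31 ± 0.12, both without overlap. This was 1.96% of the list on each side, against 1.19% of all genes higher and 1.90% lower. For Stat3, female replicate 1 and male replicate 2 were almost level. Bmpr2 (0.37 ± 0.15), the calcineurin subunit Ppp3cb (0.56 ± 0.23) and Erbb4 (0.43 ± 0.20) were higher as well.

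Clock genes were balanced, 15 of 27 higher (median 0.04, -0.01 without female replicate 3). The repressor Nr1d1 was at 41.3, 28.4, 21.1 and 23.3 CPM in females against 36.7, 56.0, 46.9 and 50.0 CPM in males (-0.78 ± 0.25, adjusted p = 0.381) and Cry1 at 7.48, 17.9, 21.7 and 20.8 CPM in females against 10.7, 10.4, 9.52 and 6.62 CPM in males (0.85 ± 0.30, adjusted p = 0.403), with female replicate 1 on the male side of both. Of 35 interferon-stimulated and 44 ribosomal protein genes, 0 were at an unadjusted p below 0.05 in either direction, with medians of 0.01 and -0.05 (-0.08 and -0.17 without female replicate 2). The first was 0.08 without male replicate 1 and the second 0.04 without female replicate 3. Cell cycle genes had a median of -0.10 (19 of 43 higher), from -0.18 without female replicate 2 to 0.01 without male replicate 2. Among 16 nuclear non-coding RNAs the 7SK RNA Rn7sk (-1.20 ± 0.38) and the imprinted Airn (-0.50 ± 0.16) were lower at an unadjusted p below 0.05, and the median was -0.13 (0.00 without female replicate 2, -0.19 without female replicate 4).

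Gene length moved with the sex difference. Over 5 classes of gene-body length with equal numbers of genes, from shortest to longest, the median log2 fold change was -0.07, -0.07, -0.02, 0.03 and 0.08, and 40.9% against 62.2% of genes had higher values in females at the ends. In the libraries labelled wild type the medians ran from 0.06 to -0.04. Some lists with lower values hold short genes: the median gene body was 6.87 kb for oxidative phosphorylation and 9.36 kb for heat shock, against 24.1 kb for fatty acid oxidation and 23.2 kb for all autosomal genes tested. Sarcomere genes (24.5 kb) and the unfolded protein response (12.9 kb, median 0.15) did not follow that order. Heat shock (-0.45) and fetal and stress genes (-0.36, 16.4 kb) have lower medians than the shortest class, -0.07. The part of gene length in the list medians was not tested.

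**Figure D5:**
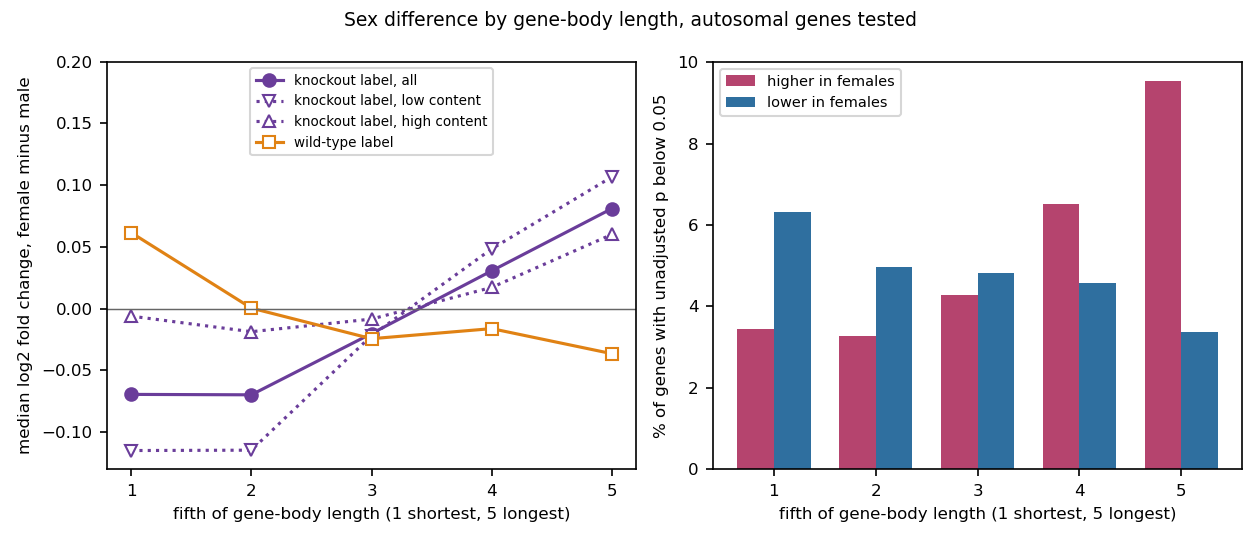
Left, the median log2 fold change, female minus male, of autosomal genes in 5 equal classes of gene-body length for both labels and for high and low content libraries; right, the percentage of genes in each class with an unadjusted p below 0.05. Under the knockout label the median goes from -0.07 in the shortest to 0.08 in the longest class, and under the wild-type label from 0.06 to -0.04.

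The sex difference was not shown to depend on content: edgeR called 0 of 15981 autosomal genes (0%) for its contrast between high and low content libraries, with 349 at an unadjusted p below 0.05. limma-voom called 0 and DESeq2 2, the olfactory receptor Olfr872 and Gm8189. How many genes passed depended on the tool. DESeq2 with the same design called 29 higher (0.172%) and 41 lower (0.243%) and limma-voom 3 and 4. With both tools Atp2b2 and Ankrd63 had the smallest p-values, and Slc38a1, Adamts3, Exd1, Lman1l and Capn3 were called. DESeq2 called all 12 leading genes on each side. It also called S100a1, Hspb6 and Ankrd1 of the lists (DESeq2 adjusted p = 0.0319, 0.038 and 0.0419), which edgeR did not. With replicate number as a block edgeR called 1 higher (Ankrd63) and 3 lower (Atp2b2, Gdf15 and Gm24447). Without female replicate 1 it called 24 higher and 26 lower, and without female replicate 2 the genes at an unadjusted p below 0.05 numbered 356 higher and 484 lower.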

How the data were processed

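The deposited table holds counts of reads over whole gene bodies, before any filter; the authors aligned reads with STAR 2.5.3a and counted with featureCounts 1.5.0 on GRCm38 (mm10), per the submitters' processing notes. The sources used here do not explain the strand setting, so overlapping genes are uncertain. Of 55536 genes, 17455 passed filterByExpr and 16876 of these lie on chromosomes 1 to 19. Counts of all 15 libraries were fitted with edgeR 4.0.16 (R 4.3.3; TMM, robust quasi-likelihood), with a mean for each sex and label and a term for Pecam1 at or above 20 CPM. Benjamini-Hochberg adjustment ran over all tested genes. Every adjusted p and every count of called genes is edgeR's unless another tool is named. DESeq2 1.42.0 and limma 3.58.1 (voom) were alternatives, with other content terms, subsets, scalings, filters and libraries left out. The fit was tested on simulated data. A floor of 3 counts is 0.0219 to 0.112 CPM by library and covers counting error only.

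Genes named are those called, then the smallest p per direction to 12 (mean of at least 1 CPM, no predicted name), for each list at most 3 tested members by smallest p, sex-linked and marker genes, and genes of the label contrast. Other members were named after their values were seen. The comparison, members and lists were chosen with earlier results of these data known. Same-numbered female and male libraries deviated together once group means were removed (r = 0.513, 0.858, 0.811 and 0.732), and less once content was removed as well (0.207, 0.207, -0.0156 and -0.0156, where equal pairs follow from having 2 libraries per sex and content level); this comes from the data alone. Where a symbol occurs more than once, the gene with more reads was used. Promoter windows are RefSeq's, GRCm38.p6. Some list members are not reported here.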

Additional observations from a re-analysis of the deposited data

Results flagged for a closer look

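Within a sex, 14 of 282 sets of 4 libraries had a library far from the other 3. This is about the 1 in 20 that chance alone gives. Of these, 5 were male replicate 4, 3 female replicate 1, 3 female replicate 2, 2 male replicate 2 and 1 male replicate 3.

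Male replicate 4 had Dnajb1 at 29.3 CPM (other males 7.19 to 9.46), Hsp90aa1 at 40.2 CPM (14.1 to 16.2), Hspa1a at 12.3 CPM (0.449 to 0.865), Stat3 at 199 CPM (139.2 to 147) and Eif2ak3 at 23.96 CPM (28.2 to 28.8). Female replicate 2 had Stim2 at 69.0 CPM (other females 31.5 to 36.8), Igf2bp3 at 1.49 CPM (0.191 to 0.359) and Fosb at 1.42 CPM (0.127 to 0.202). Female replicate 1 had Pcm1, the gene of the sorted protein, at 156 CPM (205 to 214), Lmna at 33.7 CPM (19.2 to 21.4) and Fosl2 at 45.6 CPM (23.3 to 26.7). Male replicate 2 had Kcna4 at 4.51 CPM (6.58 to 6.76) and Ppard at 47.9 CPM (61.0 to 62.9), and male replicate 3 had Hspa8 at 63.6 CPM (79.0 to 80.7).

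Reads of Y-linked genes were found in the female libraries, 59, 948, 9 and 24 in replicates 1 to 4, above the limit of 3 counts.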

How the results depend on the processing

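Against 1 autosomal gene higher and 1 lower in females, DESeq2 called 29 and 41, limma-voom 3 and 4, a numeric content term 2 and 4, and no filter on low counts 280 and 336. The 8 libraries alone gave 0 and 2, and with replicate number as a block 1 and 3. Low content and high content libraries alone gave 0 and 0 each, with fewer samples. No content term gave 0 higher, as did leaving out the 3 libraries with the most reads of the other sex. They were female replicate 2 and, under the wild-type label, female replicate 2 and male replicate 2. Uty was at 9.30 and 10.5 CPM in these females and Xist at 54.2 CPM in this male. Leaving out 1 library gave 0 to 24 higher and 1 to 26 lower, the highest of both without female replicate 1. Sex-linked calls numbered 9, but 3 with no content term, 4 in the 8 libraries, 5 with the replicate block, 1 in low and 1 in high content libraries, 15 with DESeq2, 40 with no filter, and 2 to 12 without 1 library. DESeq2 called 1 gene for the contrast of labels and 2 for that of content. In low content libraries Nppa was at 0.29 and Fosb at -0.28, both reversed. Other causes were not tested. DESeq2 size factors, TMM from autosomal genes and the deposited filtered table gave 1 and 1, and changed no call among 141 named genes. The replicate block changed 1 call among them, Gdf15, which it added. More were added by DESeq2 (26), limma-voom (5), a numeric content term (3) and no filter on low counts (89). Low content and high content libraries alone each lost 2 of these calls. No content term lost 1, and the 8 libraries alone added 1 and lost 1. With 4 libraries a side, no exact permutation p of a single value can go below 0.0286, and genes of few reads, such as Ankrd63 with 1 to 15 in males, are measured with little precision.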
